A study of Mus musculus with 7 samples.

Results

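The troponin genes of C2C12 cells were described in RNA-Seq of cells depleted of lnc-SMaRT, a long non-coding RNA of mouse skeletal muscle, and in the RNA pulled down with it. The members were the rows of the expression table with the symbol Tnnc1, Tnnc2, Tnni1, Tnni2, Tnnt1, Tnnt2 or Tnnt3, 7 of 11642 rows, and each gene had a row of its own. The choice used symbols and no measured value. C2C12 is a line of murine myoblasts that fuse into myotubes when serum is withdrawn, and all RNA-Seq samples were taken at day 2 of differentiation. The si-SCR group (n = 2) received a scramble siRNA and the si-SMaRT group (n = 2) the siRNA si-SMaRT-1. The study's text speaks of 2 independent populations of cells, and whether samples with the same number came from one population is not given in the sources used here. A single siRNA and a single cell line stand behind every difference between these groups. The pull-down was made in C2C12 cells and gave 1 library each for the input, for probes of set #1 against lnc-SMaRT and for probes against LacZ, with no replicates.

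Troponin is the calcium switch of striated muscle and sits on the thin filament together with actin and tropomyosin. Troponin C binds calcium, troponin I holds the filament in its blocked state and troponin T ties the complex to tropomyosin. Each subunit has forms from separate genes. Tnnc2, Tnni2 and Tnnt3 encode the fast skeletal forms and Tnni1 and Tnnt1 the slow skeletal forms, Tnnc1 serves slow skeletal and cardiac muscle, and Tnnt2 is the cardiac troponin T that embryonic skeletal muscle also makes. Cultured myotubes are known to make fast, slow and cardiac forms side by side. Tnni3, the cardiac troponin I, had no row in the table and was not analysed here.

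The siRNA is shown because it sets the groups apart, and its letters as listed are those of the lnc-SMaRT transcript.
si-SMaRT-1: gagaagcagaacaaacagaua
All 21 bases were found in the lnc-SMaRT transcript of 1409 bases, from position 878. The longest stretch that any troponin transcript shared with either strand of the siRNA was 10 bases, in Tnnt2, and in the other 6 genes it was at most 8 bases. A match to bases 2 to 8 of the strand that pairs with lnc-SMaRT was present in transcripts of Tnni1, Tnnt2 and Tnnt3, 3 of 7 genes, against 31.6% of the 10031 genes tested that have a transcript of the same symbol in GENCODE M21. Such a match is a description of letters only.

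The targeted RNA was reduced. Lnc-SMaRT had an RPKM (reads per kilobase of exon, scaled to the library size by the authors) of 19.1 and 15.9 in the si-SCR samples and of 2.88 and 3.65 in the si-SMaRT samples, with a log2 fold change of -2.39 ± 0.28 (SE, n = 2 and 2; limma adjusted p = 0.000882). The effective library sizes worked out from the RPKM steps ranged from 11291255 to 14312935 reads. Of the 9 markers of differentiated muscle with a row, 8 were between 187 and 6687 RPKM in the samples and Actn2, a sarcomeric alpha-actinin, was between 2.82 and 5.37. Actn3, the alpha-actinin in the list of fast fiber genes, was between 243 and 485 RPKM. Pax7, a marker of muscle stem cells, had no row. Of 7 cardiac markers only Gata4 and Myh6 had rows, at a mean RPKM in si-SCR of 2.98 and 0.58.

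Troponin RNAs were among the most abundant in the table. In si-SCR the mean RPKM ranked Tnnc2 at 12 and Tnnc1 at 13 of 11642 rows, Tnnt3 at 22, Tnnt1 at 106, Tnni2 at 118, Tnni1 at 148 and Tnnt2 at 224. In si-SMaRT the same genes stood at ranks 35, 38, 50, 218, 252, 298 and 323. Together they took up 1.26% and 1.09% of the recovered reads in si-SCR and 0.632% and 0.530% in si-SMaRT, so that both shares of the depleted cells lay below both of the control cells. At the lowest read number of a member in a sample, 3695 reads of Tnni2, the counting error was 1.65% of the value, which covers counting error only, and the spread between samples was far wider.

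On the RPKM scale troponin C was the most abundant subunit, and its fast and slow forms were at like levels. Tnnc1, the slow and cardiac calcium-binding subunit, had an RPKM of 2730 and 2157 in si-SCR and of 1132 and 889 in si-SMaRT. Both depleted samples lay below both controls, and the log2 fold change was -1.27 ± 0.31 (SE, n = 2 and 2; limma adjusted p = 0.0842). Tnnc2, the fast skeletal form, had an RPKM of 2643 and 2249 in si-SCR and of 1235 and 853 in si-SMaRT. These groups did not overlap either, with a log2 fold change of -1.25 ± 0.31 (adjusted p = 0.0994). The study, which tested counts with edgeR, counts Tnnc2 among its deregulated mRNAs. It also reports Tnnc2 as lower by qPCR with each of its siRNAs against lnc-SMaRT.

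Troponin I, the inhibitory subunit, was lower in level than troponin C. Tnni1, the slow form, had an RPKM of 374 and 357 in si-SCR and of 212 and 136 in si-SMaRT, with a log2 fold change of -1.10 ± 0.29 (SE, n = 2 and 2; limma adjusted p = 0.124). Its si-SMaRT samples stood 1.56-fold apart, the widest gap between replicates of any member, and both were still below the controls. Tnni2, the fast form, had an RPKM of 509 and 394 in si-SCR and of 219 and 174 in si-SMaRT, with a log2 fold change of -1.20 ± 0.28 (adjusted p = 0.0752), again without overlap.

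Troponin T differed most among its forms. Tnnt3, the fast form, had an RPKM of 1881 and 1518 in si-SCR and of 767 and 882 in si-SMaRT, with a log2 fold change of -1.04 ± 0.30 (SE, n = 2 and 2; limma adjusted p = 0.171). It was the only member that was higher in si-SMaRT 2 than in si-SMaRT 1. Tnnt1, the slow form, had an RPKM of 538 and 477 in si-SCR and of 233 and 205 in si-SMaRT, and its log2 fold change of -1.21 ± 0.27 had the lowest adjusted p of the members, 0.0599. Tnnt2, the cardiac form, had an RPKM of 253 and 244 in si-SCR and of 165 and 143 in si-SMaRT. Its log2 fold change of -0.69 ± 0.27 (adjusted p = 0.378) was the smallest of the members, with no overlap of the groups.

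**Figure D1:**
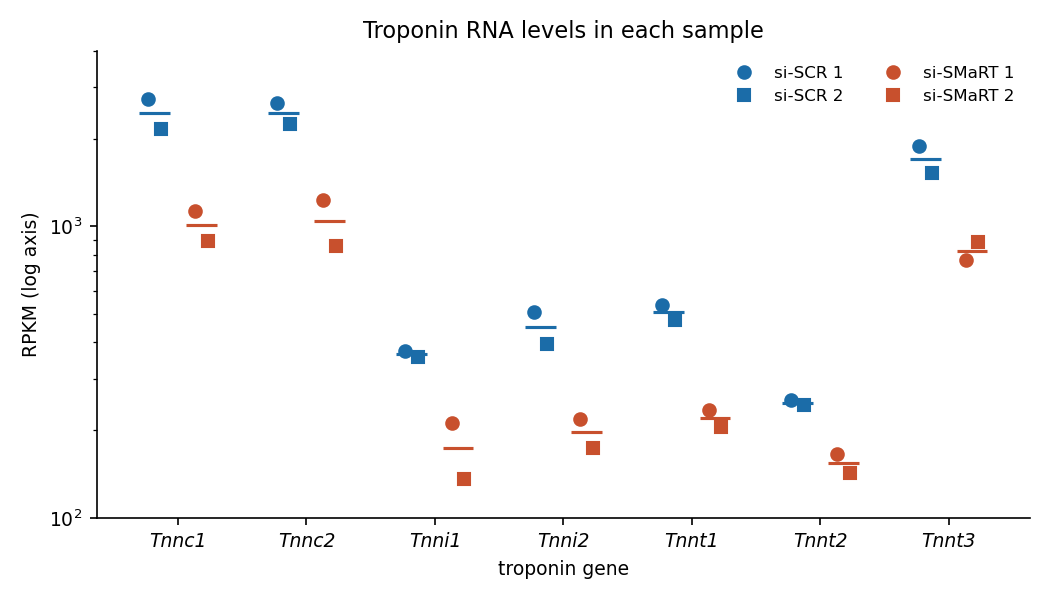
RPKM of each troponin gene (x axis) on a log axis (y axis), with 1 point per sample (circles, replicate 1; squares, replicate 2) and a line at the mean of each group of 2. For every gene both si-SMaRT points lie below both si-SCR points, from 1132 and 889 against 2730 and 2157 for Tnnc1 to 165 and 143 against 253 and 244 for Tnnt2.

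The order of the mean RPKM was the same in both groups, from Tnnc2 and Tnnc1 through Tnnt3, Tnnt1, Tnni2 and Tnni1 to Tnnt2. In si-SCR the ranges of Tnnc1 and Tnnc2 overlapped, with Tnnc1 the higher in si-SCR 1 and Tnnc2 in si-SCR 2. The ranges of Tnnt1 and Tnni2 overlapped too, but within each control sample Tnnt1 was the higher, at 538 against 509 and 477 against 394. Tnnt3 lay below both troponin C genes and Tnni1 lay below Tnni2 in both control samples. In si-SMaRT the ranges of Tnnc1 and Tnnc2 overlapped again and the higher Tnnt3 sample, at 882, reached above the lower Tnnc2 sample, at 853. The ranges of Tnnt1 and Tnni2, of Tnni2 and Tnni1 and of Tnni1 and Tnnt2 also overlapped there. Within each si-SMaRT sample Tnnt1 was still above Tnni2 and Tnni2 above Tnni1, whereas Tnni1 was above Tnnt2 in si-SMaRT 1 only.

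The length that enters the RPKM bears on this order. The RPKM of a gene was taken over all its annotated exons, 7752 bases for Tnnt2 and 3600 bases for Tnni1, whereas their coding transcripts had a median of 1104.5 and 1038 bases, and for Tnnc2 the lengths were 800 and 700 bases. Per kilobase of coding transcript, a scale chosen after the values were seen, Tnnt2 had a mean of 1743 in si-SCR and stood above Tnni1 at 1267, Tnnt1 at 1198 and Tnni2 at 901. Tnnc1 then led at 3527, ahead of Tnnc2 at 2796 and Tnnt3 at 2333. Fold changes between groups are not touched by the length of a gene.

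All 7 troponin genes had both si-SMaRT samples below both si-SCR samples, a pattern found in 20.4% of the 11086 genes tested. Abundant genes showed it more often, in 47.2% of the 564 genes that averaged 100 RPKM or more in si-SCR, and their median log2 fold change was -0.25. The median log2 fold change of the members was -1.20, against 0.02 over all genes tested. Of the members, 6 had a log2 fold change under -1, which 1.82% of the genes tested had, and 4.08% of the abundant genes.

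None of the 7 members passed an adjusted p of 0.05 in limma, a call that 0.325% of the genes tested reached in the lower direction, 36 genes, and 0.505% in both directions. At an unadjusted p under 0.05 all 7 were lower, against 5.6% of the genes tested. With voom on the recovered reads Tnnc1, Tnnc2, Tnni1, Tnni2 and Tnnt1 passed (background 0.65%), with quantile normalization Tnnc1 and Tnnc2 passed (background 0.216%), and with the GC trend (the dependence of values on the GC content of genes) taken out of each sample Tnni1 and Tnnt1 passed (background 2.4%). The median log2 fold change of the members was -1.36 without si-SMaRT 1, -1.03 without si-SMaRT 2, -1.07 without si-SCR 1 and -1.30 without si-SCR 2. In these fits the lone sample of a group is assumed to vary as the other group does. The log2 fold change of every member was below 0 in all 17 alternatives, many of which could not change its sign.

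**Figure D2:**
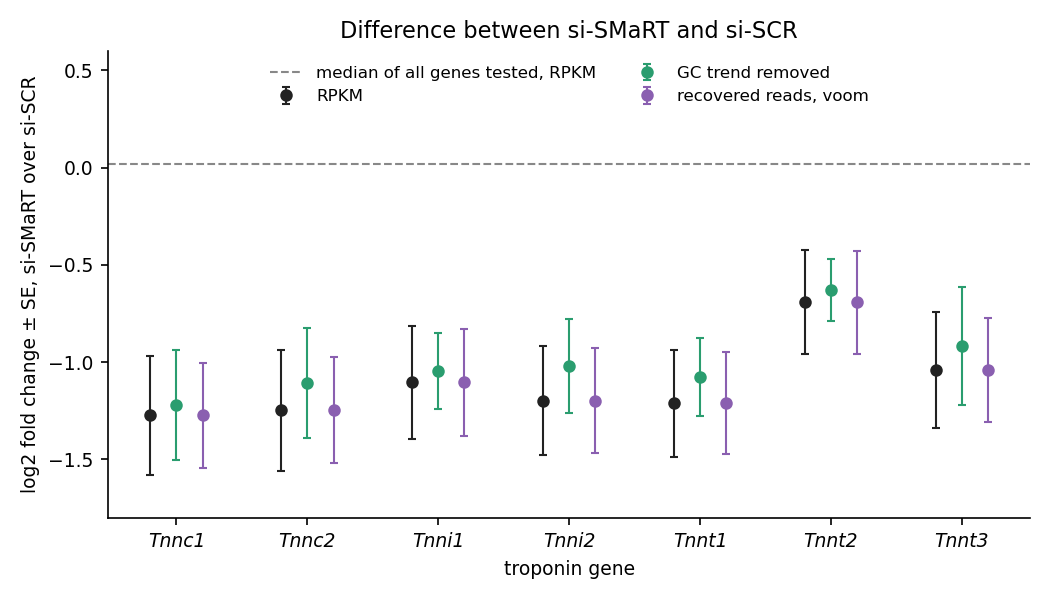
Log2 fold change of si-SMaRT over si-SCR (y axis, bars are the SE, n = 2 and 2) for each troponin gene (x axis) from the RPKM values, with the GC trend removed, and from the recovered reads with voom. The RPKM values run from -1.27 for Tnnc1 to -0.69 for Tnnt2, and the dashed line is the median of all genes tested at 0.02.

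The balance of fast and slow forms was compared as the share of each gene in the summed RPKM of its subunit. The share of Tnnc1 in troponin C was 50.8% and 48.9% in si-SCR and 47.8% and 51.0% in si-SMaRT. The control samples lay within the range of the depleted samples, and the difference of -0.45 percentage points was smaller than the spread in either group (exact permutation p = 1, two-sided). With the GC trend removed the share was 49.6% and 48.7% in si-SCR and 48.1% and 46.3% in si-SMaRT, a difference of -1.94 points without overlap (exact permutation p = 0.333), and with 1 sample left out in turn the difference in RPKM shares ran from -2.06 to 1.17 points. The share of Tnni1 in troponin I was 42.4% and 47.5% in si-SCR and 49.2% and 43.9% in si-SMaRT, a difference of 1.61 points with overlapping groups (exact permutation p = 0.667). With 2 samples against 2 the smallest exact p is 0.333, so no share could reach 0.05.

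Within troponin T the share of Tnnt3 was 70.4% and 67.8% in si-SCR and 65.8% and 71.7% in si-SMaRT, with overlap (exact permutation p = 1). The share of Tnnt2 was 9.47% and 10.9% in si-SCR and 14.2% and 11.6% in si-SMaRT, and that of Tnnt1 was 20.1% and 21.3% against 20.0% and 16.7%. For both, the groups did not overlap (exact permutation p = 0.333 each, the smallest possible), the cardiac form with the larger share and the slow form with the smaller share after depletion. Per kilobase of coding transcript the share of Tnnt2 was 31.6% and 34.8% in si-SCR and 42.0% and 37.2% in si-SMaRT. With the GC trend removed its share in si-SMaRT 2 was 10.5%, below the 10.9% of si-SCR 2, so that the groups overlapped.

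**Figure D3:**
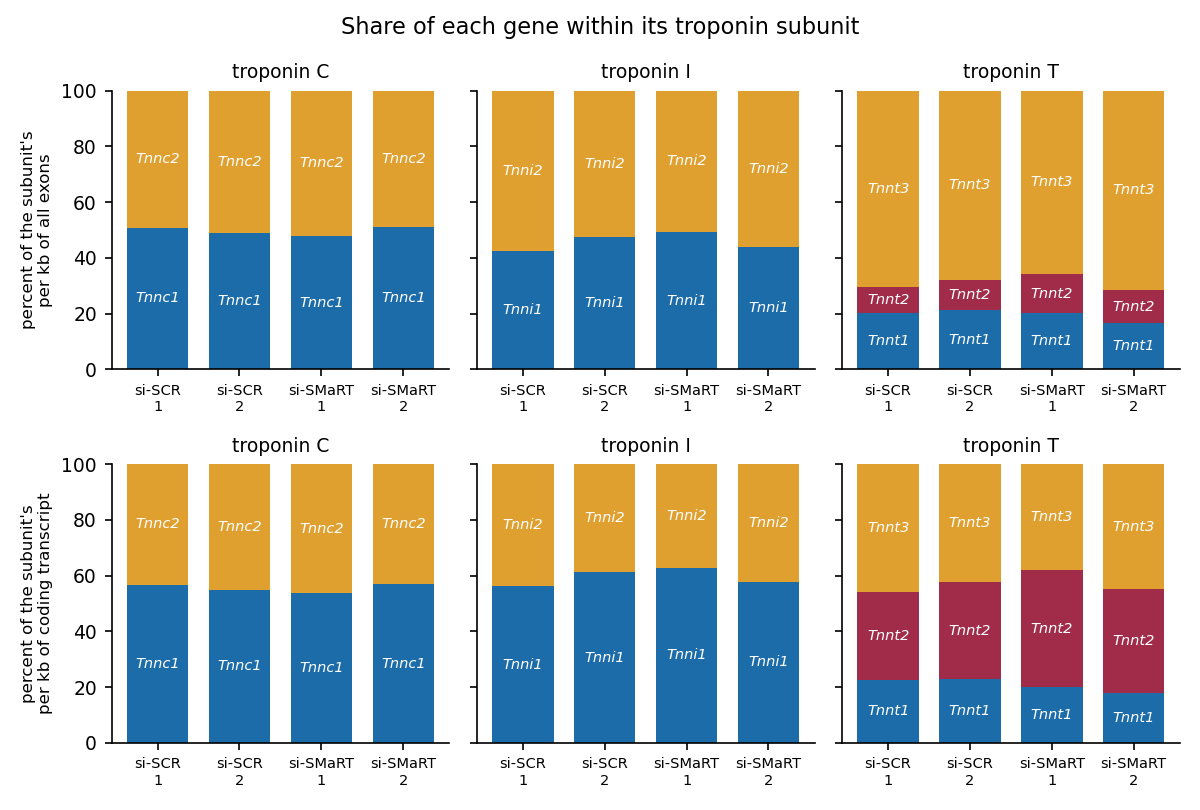
Percent of each subunit's summed level (y axis) that each gene made up in each sample (x axis), per kilobase of all exons in the upper row and per kilobase of coding transcript in the lower row. Tnnc1 and Tnnc2 are near 50% each in all samples of the upper row, and Tnnt2 makes up 9.47% to 14.2% of troponin T there and 31.6% to 42.0% in the lower row.

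The same question was put to pairs of genes, as the log2 ratio of their RPKM within a sample. Of 21 pairs, 8 had ratios that did not overlap between the groups, and 6 of these were the pairs of Tnnt2 with each other member. These 6 share Tnnt2 and are not separate observations. With the GC trend removed, the ratios of Tnni2 and of Tnnt3 to Tnnt2 overlapped, and those of the other members to Tnnt2 did not. Over all 61444155 pairs of the genes tested 43.0% had ratios that did not overlap, a share above that of the troponin pairs. The log2 ratio of Tnnt1 to Tnnt2 was 1.09 and 0.97 in si-SCR and 0.50 and 0.52 in si-SMaRT, a change of -0.52. The log2 ratio of Tnnc1 to Tnnc2 was 0.05 and -0.06 in si-SCR and -0.13 and 0.06 in si-SMaRT. The exact permutation p of these 21 ratios could not go below 0.333, and adjusted over the pairs none could pass.

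The subunits were also set against each other. These ratios were not tested, as an exact p of 2 samples against 2 cannot go below 0.333, and 43.0% of all pairs of genes tested did not overlap. The summed RPKM of troponin C was 6.09 and 5.87 times that of troponin I in si-SCR and 5.50 and 5.62 times in si-SMaRT, without overlap. Against troponin T it was 2.01 and 1.97 times in si-SCR and 2.03 and 1.42 times in si-SMaRT, with overlap. Per kilobase of coding transcript, troponin C over troponin T was 1.24 and 1.16 in si-SCR and 1.102 and 0.838 in si-SMaRT, so that the groups did not overlap and troponin T was the more abundant in si-SMaRT 2. In RPKM, the fast set (Tnnc2, Tnni2, Tnnt3) over the slow set (Tnnc1, Tnni1, Tnnt1) was 1.38 and 1.39 in si-SCR and 1.41 and 1.55 in si-SMaRT. Per kilobase of coding transcript this ratio was 1.017 and 0.994 in si-SCR and 0.993 and 1.131 in si-SMaRT, with overlap, so the lead of the fast set depended on the length used. The value of si-SMaRT 2 stands apart, and it holds the higher Tnnt3 of that sample. The part of Tnnt3 in this ratio was not tested.

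The si-SMaRT samples differed from each other along the GC content of genes. In the study's read numbers, si-SMaRT 1 also lost a far larger part of its read pairs at the rRNA and tRNA filter than the other RNA-Seq samples. Whether that loss bears on the values given here was not tested. Across the 10017 genes with a GC content, si-SMaRT 2 minus si-SMaRT 1 (log2) had a rank correlation (Spearman's rho) of -0.84 with it. The rho was 0.35 for si-SCR 2 minus si-SCR 1. For si-SMaRT minus si-SCR, the comparison of the groups, it was -0.31. These values are across genes of the same libraries, and genes are not independent replicates. The troponin genes lay between 51.4% GC for Tnnc1 and 57.2% for Tnni2, above 62.0% to 89.8% of these genes. Tnni1 was 0.64 lower on the log2 scale in si-SMaRT 2 than in si-SMaRT 1, where the 1016 genes within 1 percentage point of its GC content had a median difference of -0.25. Tnnt3 was 0.20 higher in si-SMaRT 2, where 1028 genes of like GC content had a median of -0.39. Tnnc2 at -0.53 was near the -0.49 of its like genes. With the GC trend removed, the log2 fold changes of the members were between -1.22 for Tnnc1 and -0.63 for Tnnt2, and the median was -1.05.

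**Figure D4:**
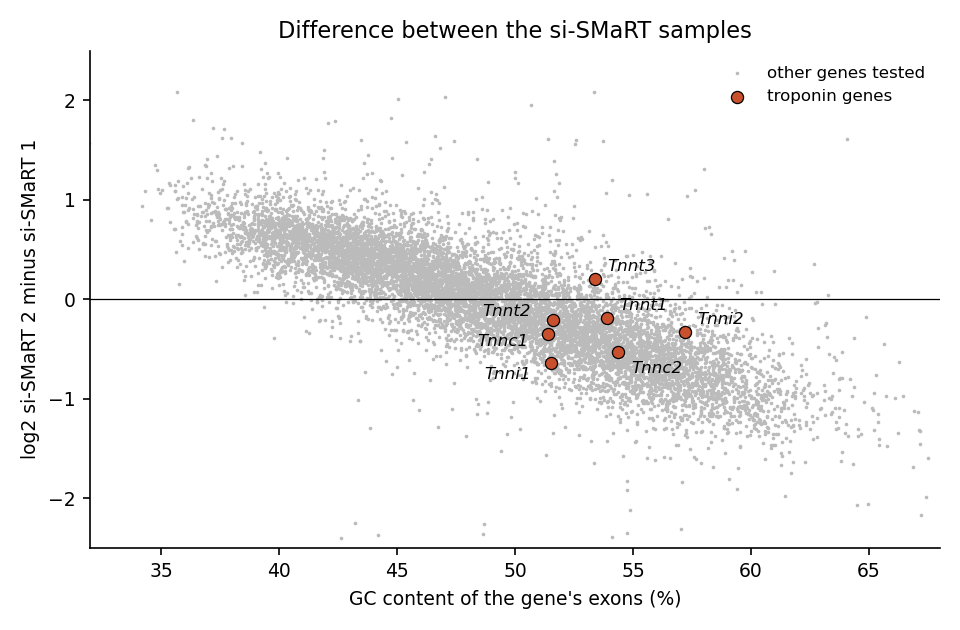
Log2 difference between si-SMaRT 2 and si-SMaRT 1 (y axis) against the GC content of the exons of each gene in percent (x axis), with 1 point per gene tested and the troponin genes in red. The points fall from left to right, Tnnt3 lies above the zero line at 0.20 and the other members lie between -0.19 and -0.64, and 41 of 10017 genes fall outside the axes.

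The partners of troponin on the thin filament had a median log2 fold change nearer to 0, at -0.24. The 21 thin filament partners include the actins, tropomyosins, nebulin and leiomodins, and also Cfl2, Capza2 and Capzb. Of the 21, 18 were tested, 0 passed the adjusted threshold in either direction and 3 were lower at an unadjusted p under 0.05. Below 0 were 15 and above 0 were 3, where 47.7% of all genes tested were below 0. Both si-SMaRT samples lay below both controls in 11 and above both in 1, against 2266 and 2241 of the 11086 genes tested. Neb, Lmod1, Lmod2 and Lmod3 were at -0.49, -0.15, -0.45 and -0.73, and Cfl2, Capza2 and Capzb at -0.09, -0.02 and 0.05. Acta1, the skeletal actin, had a log2 fold change of -0.73 ± 0.35, Actc1, the cardiac actin of early myotubes, of -0.91 ± 0.30, Klhl41, a nebulin partner, of -0.86 ± 0.28, and Acta2, the smooth muscle actin, of -0.23 ± 0.31 (limma adjusted p between 0.250 and 0.889). The tropomyosin genes Tpm1 and Tpm2, whose proteins troponin T binds, had log2 fold changes of -0.25 ± 0.27 and -0.43 ± 0.29. The other tropomyosins, Tpm3 and Tpm4, had 0.17 ± 0.26 and 0.11 ± 0.29, and for Tpm3 both si-SMaRT samples lay above both controls.

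Fiber type genes outside the troponins had medians below 0 for both types, though not every gene was lower. Of the fast fiber genes tested 11 were below 0 and 2 above, and of the slow or cardiac genes 8 and 1, where 47.7% of all genes tested were below 0. The fast myosin heavy chains Myh4, Myh2 and Myh1 had log2 fold changes of 0.43 ± 0.29, 0.08 ± 0.28 and -0.06 ± 0.28. Mybpc1, in the slow list, had 0.27 ± 0.29. These genes were named after their values were seen. Of 14 fast fiber genes 13 were tested, 1 passed as lower in limma and 7 were lower at an unadjusted p under 0.05, with a median log2 fold change of -0.63. The median was -0.32 without si-SMaRT 2, -0.93 without si-SMaRT 1, -0.69 without si-SCR 1 and -0.56 without si-SCR 2. With quantile normalization 0 passed. Mylpf, the fast regulatory light chain, averaged 5988 RPKM in si-SCR against 2915 in si-SMaRT and had a log2 fold change of -1.03 ± 0.33, and Myl1, an essential light chain, of -1.10 ± 0.28. Mybpc2, the fast myosin binding protein C, fell by 1.89 on the log2 scale (adjusted p = 0.0400) from a mean RPKM of 0.843, a low level. Of 14 slow or cardiac genes 9 were tested, 1 passed as lower and 5 were lower at an unadjusted p under 0.05, with a median of -0.77. The median was -0.40 without si-SMaRT 2, -0.75 without si-SMaRT 1, -0.61 without si-SCR 1 and -0.74 without si-SCR 2. With quantile normalization 0 of the slow or cardiac genes passed. Csrp3, a muscle LIM protein, fell by 1.32 (adjusted p = 0.0356), and Casq2, the cardiac calsequestrin, Myl4, the embryonic and atrial light chain, and Myh7b, a slow-type myosin, had log2 fold changes of -0.94 ± 0.27, -0.90 ± 0.27 and -1.07 ± 0.41.

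The regulators of myogenesis had a median above 0. Of 13 regulators 12 were tested, 0 passed the adjusted threshold in limma, 1 was lower and 1 higher at an unadjusted p under 0.05, and the median log2 fold change was 0.22. The median was 0.48 without si-SCR 2 and 0.40 without si-SMaRT 2. Myog, the factor of terminal differentiation, averaged 1064 RPKM in si-SCR against 781 in si-SMaRT and had a log2 fold change of -0.47 ± 0.30. Mef2c, a partner of the myogenic factors, had -0.76 ± 0.29 and Mef2a, of the same family, 0.53 ± 0.28 (limma adjusted p between 0.359 and 0.696).

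Markers of the cell state are given beside the troponins. Of 10 markers of differentiated muscle cells 9 were tested and all 9 had a log2 fold change below 0, where 47.7% of all genes tested did. Their median was -0.65, 0 passed the adjusted threshold and 4 were lower at an unadjusted p under 0.05. Without si-SMaRT 2 the median was -0.23, and without si-SMaRT 1 it was -0.99. Their summed RPKM was 14126 and 13330 in si-SCR and 9129 and 6419 in si-SMaRT. Ckm, the muscle creatine kinase, was at -1.25 ± 0.32. Of 13 markers of undifferentiated or proliferating myoblasts 12 were tested, 4 with a log2 fold change below 0 and 8 above 0, with a median of 0.26, and their summed RPKM was 233 and 207 in si-SCR and 220 and 289 in si-SMaRT. Id3, an inhibitor of the myogenic factors, rose by 1.60 (adjusted p = 0.0232) and Ccnd1, the cyclin D1 of cycling cells, rose by 1.36 (adjusted p = 0.0356), whereas Myf5 had a log2 fold change of 0.00 ± 0.31 and the joined row of Top2a of 0.25 ± 0.29. Heyl and Id2, named after their values were seen, had -0.75 ± 0.30 and -0.58 ± 0.29 with both si-SMaRT samples below both controls, and Heyl was the 1 marker lower at an unadjusted p under 0.05. With quantile normalization 1 of these myoblast markers passed as higher. The median was 0.48 without si-SMaRT 1, 0.09 without si-SMaRT 2 and 0.11 without si-SCR 2. In bulk RNA, fewer cells of a type and less RNA per cell cannot be told apart, and the part of these marker shifts in the lower troponin levels was not tested.

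Cardiac and smooth muscle markers were examined in the same way. Of 7 cardiac markers Nkx2-5, Tbx5, Tnni3, Nppa and Nppb had no row, and the summed RPKM of Gata4 and Myh6 was between 3.18 and 4.60 in the samples. Their log2 fold changes were 0.15 ± 0.30 and -0.10 ± 0.38. Of 7 smooth muscle markers Myh11 and Myocd had no row, 5 were tested with a median of -0.23, 0 passed the adjusted threshold and 0 an unadjusted p under 0.05, and the summed RPKM was between 2251 and 2901, most of it Acta2. Tagln, Smtn and Cnn1 had log2 fold changes of -0.19 ± 0.26, -0.25 ± 0.34 and -0.35 ± 0.32.

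**Figure D5:**
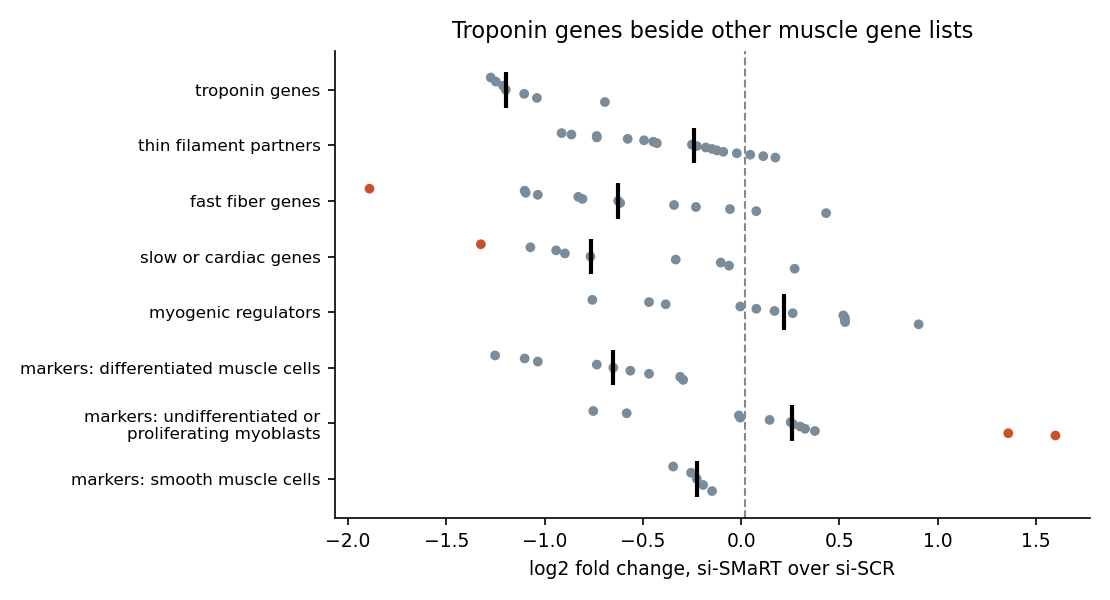
Log2 fold change of si-SMaRT over si-SCR (x axis) of each gene tested in the lists (y axis), with 1 point per gene, red where the limma adjusted p is under 0.05, a black line at the median of the list and a dashed line at the median of all genes tested. The troponin genes have their median at -1.20, the differentiated muscle markers at -0.65, the thin filament partners at -0.24 and the myoblast markers at 0.26.

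The genes most like the troponins in pattern were picked by the root mean square difference, over the 4 samples, between their log2 deviations and the median deviations of the members. Among 4676 other genes that averaged 10 RPKM or more, Dusp28 came first at 0.05, with an RPKM of 21.4 and 19.5 in si-SCR and of 9.98 and 8.40 in si-SMaRT. It was followed by Vamp5, a vesicle protein of muscle, at 0.08, Hrc, a calcium-binding protein of the sarcoplasmic reticulum, at 0.08, Csrp3 at 0.08 and Mylpf at 0.09. Of the members themselves Tnni2 was at 0.05 and Tnnt2 at 0.25, the farthest, ahead of Tnnt3 at 0.20. Likeness over 4 samples of the same comparison is a description and holds no test.

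The troponin genes sit in pairs of an I and a T gene (GRCm38, GENCODE M21). On chr1, Tnni1 (135779434 to 135810989, plus strand) is followed by Lad1 and then Tnnt2 (135836354 to 135852260, plus strand). On chr7, Tnni2 (142441808 to 142444410, plus strand) is followed by Lsp1 and then Tnnt3 (142498836 to 142516009, plus strand). Also on chr7, Tnnt1 (4504570 to 4516382, minus strand) lies 1922 bases from Tnni3. The troponin C genes stand apart from them, Tnnc1 on chr14 (31208312 to 31211729, plus strand) and Tnnc2 on chr2 (164777161 to 164779967, minus strand).

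The genes nearest to the troponin genes on either side, or overlapping them, were read from the same fit, and 11 of them had been tested. Of these 7 had a log2 fold change below 0 and 4 above 0, where 47.7% of all genes tested were below 0, and 0 passed the adjusted threshold. Lsp1, a leukocyte actin-binding protein gene between Tnni2 and Tnnt3, had an RPKM of 41.2 and 38.6 in si-SCR and of 33.6 and 29.0 in si-SMaRT, with a log2 fold change of -0.35 ± 0.26. Syt8, a synaptotagmin gene 1411 bases from Tnni2, had an RPKM of 10.5 and 12.1 in si-SCR and of 5.42 and 3.54 in si-SMaRT, with a log2 fold change of -1.34 ± 0.29 (limma adjusted p = 0.0507). Pkp1, the neighbour of Tnnt2, was at -0.31 ± 0.27, Ppp1r12c, the neighbour of Tnnt1, at 0.01 ± 0.32 and Phlda3, the neighbour of Tnni1, at -0.14 ± 0.33. Sema3g, a semaphorin gene 6130 bases from Tnnc1, was at 0.90 ± 0.36 with both si-SMaRT samples above both controls, and Nisch, which overlaps the Tnnc1 gene on the opposite strand outside its exons, was at 0.35 ± 0.29. Dnttip1 and Snx21 beside Tnnc2 were at -0.11 ± 0.27 and -0.45 ± 0.32, and Mrpl23 beside Tnnt3 at -0.20 ± 0.26. Tnnc2 shares 592 exon bases with Ube2c on the opposite strand, and the strand setting of the counting is not given in the sources used here. Ube2c had 326 to 465 reads in a sample, against 9767 to 26755 for Tnnc2, and a log2 fold change of 0.27 ± 0.27.

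The stretch of 250 bases before the start was read for the members that RefSeq's promoter table holds (GRCm38.p6), 5 of 7, namely Tnnc1, Tnnc2, Tnni1, Tnnt1 and Tnnt2. These starts differ from the GENCODE M21 gene ends given above. The windows of Tnnc2, Tnni1 and Tnnt1 and the second window of Tnnt2 lie wholly or mostly within the GENCODE span of the gene. The windows of the 2 troponin C genes and of Tnnt2 (its first listed start) are shown, since the former had the largest log2 fold changes of the members and the latter the smallest, with the motifs searched in capitals.
Tnnc1, chr14:31208062-31208311, plus strand: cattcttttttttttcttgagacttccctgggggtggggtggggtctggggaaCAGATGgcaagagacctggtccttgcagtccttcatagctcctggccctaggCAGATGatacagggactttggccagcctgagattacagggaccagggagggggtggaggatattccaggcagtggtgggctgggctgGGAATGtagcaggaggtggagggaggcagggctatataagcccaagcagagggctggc
Tnnc2, chr2:164779735-164779984, minus strand: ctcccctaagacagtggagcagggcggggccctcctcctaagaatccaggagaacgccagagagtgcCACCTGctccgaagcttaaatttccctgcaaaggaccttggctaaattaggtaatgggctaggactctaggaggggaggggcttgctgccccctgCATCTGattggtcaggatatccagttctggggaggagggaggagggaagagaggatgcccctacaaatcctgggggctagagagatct
Tnnt2, chr1:135836084-135836333, plus strand: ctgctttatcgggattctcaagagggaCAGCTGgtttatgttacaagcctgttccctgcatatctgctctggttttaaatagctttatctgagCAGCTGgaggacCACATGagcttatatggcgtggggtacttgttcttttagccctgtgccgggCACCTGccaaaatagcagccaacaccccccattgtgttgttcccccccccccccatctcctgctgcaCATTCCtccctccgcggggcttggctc
The motifs were the E-box (CANNTG, the letters that bHLH factors such as MyoD and myogenin bind), the MCAT element (CATTCC, bound by TEAD factors), the TATA box (TATAAA), and the MEF2 site and the CArG box by name, on both strands. An E-box was present in the window of all 5 genes, against 66.2% of 32851 promoter windows of the same length. Tnnc1 held 2, Tnnc2 held 2, Tnnt1 held 1, and Tnnt2 and Tnni1 held 4 each at the first of their 2 listed starts. The MCAT letters were found in Tnnc1, 58 to 53 bases before the start, and in Tnnt2, 27 to 22 bases before it, against 12.6% of all windows. The TATA letters were found in Tnnt1, 30 to 25 bases before the start (12.4% of all windows), and neither the MEF2 site nor the CArG box matched in any of the 5 genes (2.92% and 1.47% of all windows). These are matches of letters and no measured sites.

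Peaks of the lnc-SMaRT pull-down fell on 2 troponin genes. Of 345 peaks in the lnc-SMaRT list, 3 overlapped exons of troponin genes on the same strand, 1 in Tnnc1 and 2 in Tnnt3, and none of the 336 peaks in the LacZ list did. A lnc-SMaRT peak on an exon was found for 55 of the 11086 genes tested, 0.496%, and for 30 of the 564 genes that averaged 100 RPKM or more in si-SCR, 5.32%, against 2 of 7 troponin genes. In that group of abundant genes 8 had a LacZ peak. Tnnc2, as abundant as Tnnc1, had none in either list.

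The 3 windows are shown with the coding exon bases in capitals (GRCm38), since they are the troponin stretches in the lnc-SMaRT list.
Tnnc1, chr14:31210524-31210718, plus strand: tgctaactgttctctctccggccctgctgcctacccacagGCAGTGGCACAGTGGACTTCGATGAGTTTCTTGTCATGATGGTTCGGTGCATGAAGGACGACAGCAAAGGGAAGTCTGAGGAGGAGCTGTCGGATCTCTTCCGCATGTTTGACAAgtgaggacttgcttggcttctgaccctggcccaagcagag
Tnnt3, chr7:142507601-142507800, plus strand: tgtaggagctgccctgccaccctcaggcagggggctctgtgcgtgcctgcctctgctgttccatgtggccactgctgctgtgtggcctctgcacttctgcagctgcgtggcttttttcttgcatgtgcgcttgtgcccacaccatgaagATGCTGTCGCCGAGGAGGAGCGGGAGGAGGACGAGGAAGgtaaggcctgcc
Tnnt3, chr7:142515601-142515800, plus strand: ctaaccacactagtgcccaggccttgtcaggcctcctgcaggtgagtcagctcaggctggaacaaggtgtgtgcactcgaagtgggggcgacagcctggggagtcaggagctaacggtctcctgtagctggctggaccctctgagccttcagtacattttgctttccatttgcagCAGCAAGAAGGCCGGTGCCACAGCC
The Tnnc1 peak spanned 400 bases, from 31210401 to 31210800, of which the stretch around the coding exon is printed, and held all 115 bases of exon 4 of its coding transcript with its intron on both sides. The first Tnnt3 peak covered an exon of 39 coding bases that 7 of 23 coding transcripts of Tnnt3 carry, an alternative exon, with intron before it. In 1 of the 23 a coding exon runs from 142507770 to 142507807 instead. The last bases of that window, printed in lower case, are coding in that transcript. The second Tnnt3 peak reached 25 bases into the last coding stretch, which 21 of 23 coding transcripts share, and its other bases were intron in these transcripts. Against the 6 probes of set #1, the longest complementary run was 8 bases under the Tnnc1 peak and 7 bases under each Tnnt3 peak, where all 345 peaks had a median of 7 and a highest value of 20.

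Piranha gave these windows, in the order printed, a p-value of 0.00552, 0.00354 and 0.00172, at ranks 298, 255 and 200 of 345. None met the limit of 0.001, which 172 peaks of the lnc-SMaRT list met. The windows come from 1 pull-down library without replicates, the reads behind each are not given, and whether the list was called with the input as covariate or against LacZ is not stated. In the depleted cells Tnnc1 and Tnnt3, which had peaks, had log2 fold changes of -1.27 and -1.04, and the 5 members without a peak ranged from -1.25 to -0.69.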

How the data were processed

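RNA was measured in 4 samples of C2C12 cells, 2 si-SCR and 2 si-SMaRT, and peaks in 2 of 3 pull-down libraries. For the deposited RPKM values, the authors trimmed reads with Trimmomatic, aligned them to GRCm38 with TopHat2, counted Ensembl 77 genes with htseq-count (intersection-strict), and scaled the counts with TMM in edgeR. The deposited peak lists give a p-value per peak from Piranha in bins of 200 bases. The lists hold positions and no depth.

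Here log2(RPKM + 0.1) was fitted with limma 3.58.1 (R 4.3.3, trend in the prior variance) over genes averaging 0.5 RPKM or more, and p-values were adjusted by Benjamini-Hochberg over all 11086. Fold changes are on that scale. Reads were recovered from the RPKM steps for 11640 of 11642 rows, whole within 0.005 reads, and were used for voom, depth and shares. GC content and lengths came from GENCODE M21, and the GC trend was removed by loess (span 0.3). Peaks were overlapped with bedtools 2.31.1 by at least 1 base. In simulated data the limma test was checked for recovery of known changes. Named genes of a list were those with the 2 highest mean RPKM in si-SCR, the 2 largest log2 fold changes in size and any past the threshold. A gene that this rule names is not reported here. The tropomyosins, Neb, the leiomodins, Cfl2, Capza2, Capzb, Myh1, Myh2, Myh4, Mybpc1, Actn3 and the neighbouring genes were added after values were seen. The alternatives were other pseudocounts, filters, normalizations and blocks, and each sample left out in turn. The members and lists were chosen with earlier results of these data known.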

Additional observations from a re-analysis of the deposited data

How the results depend on the processing

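The direction of all 7 troponin genes held in all 119 fits of a member under an alternative, but many of these could not turn it. Filters, the prior variance and blocks left the log2 fold changes as they were. As both si-SMaRT samples lay below both controls, leaving out 1 sample could not reverse a sign. Of the fits of all samples, 12 planned ones passed the threshold that the RPKM fit missed. In settings chosen after the values were seen, 19 did. The number of troponin genes past the threshold, 0 at first and also with the other pseudocounts, no filter and no trend in the prior variance, was 2 among genes averaging 5 RPKM or more, 2 with quantile normalization, 2 with the GC trend removed and 5 with voom on recovered reads. With a robust loess of local lines, added after the values were seen, it was 6. Leaving out 1 sample in turn gave 0 to 7 troponin genes and 24 to 2908 genes in all. Over all genes, 56 at first, the count was 37 with quantile normalization, 458 with the GC trend removed, 104 with voom and 524 with the robust loess. The median log2 fold change of the members was -1.001 with quantile normalization and -1.05 with the GC trend removed, and -1.36 to -1.03 with 1 sample left out. None of the 3 lnc-SMaRT peaks on troponin exons was left at a p under 0.001 (0), and either strand or the whole gene body gave the same 3. The cause of these shifts was not tested. Of 144 list values under alternatives, 41 moved.

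With the replicate number as a block, 96 genes and 0 troponin genes passed, and with the GC trend also removed 355 genes and 1 troponin gene, at a median of -1.05. Nothing in the sources used here ties samples of one number together, and their deviations had a correlation of -0.36 over 11086 genes. With the numbers crossed, chosen after the values were seen, 487 genes and 6 troponin genes passed, and 1556 and 7 with the GC trend removed, at a median of -1.05. The block cannot change a mean difference in 2 full pairs, so the shares of Tnnc1, Tnni1 and Tnnt3 stayed at -0.45, 1.61 and -0.35 points. With the GC trend removed they differed by -1.94, -0.33 and -0.12 points, and with a sample left out by -2.06 to 1.17, -1.06 to 4.27 and -3.31 to 2.62 points. From reads the Tnnt3 share differed by -2.94 points.

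With 2 samples per group no exact test of a share can pass 0.05, and the depth of the peaks is unknown.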
